A study of Rattus norvegicus with 36 samples.

Results

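The genes described here are 90 pineal-enriched genes whose level differed less than 2-fold between day and night in unoperated rats, out of 29516 genes in the count tables and 24811 with a count in at least 1 library. They were chosen by 3 measured values. The CPM (the read-pair count of a gene scaled to the total of its library) in 2 pineal marker libraries, 1 from day and 1 from night, was at least 5 in both. In both it was also at least 8 times the CPM in a library of mixed tissue with 0.1 added, and the log2 ratio of night to day in Control glands, with 0.5 CPM added to each median, lay between -1 and 1. The first 2 conditions were met by 117 genes, of which 15 were at least 2-fold higher and 12 at least 2-fold lower at night in Control. The remaining 90 were taken, so their pineal enrichment and their small night/day difference in Control were selected on and are given below as descriptions with no test.

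The pineal gland makes melatonin at night. Sympathetic fibres from the superior cervical ganglia release norepinephrine (NE) in the gland during the night, and NE raises cyclic AMP in pinealocytes, which raises the activity of an enzyme of melatonin synthesis at night. Much of the pineal transcriptome rises and falls on this signal, whereas genes that maintain pinealocyte identity or the phototransduction-related machinery of the gland can be expressed around the clock. The count tables list Ensembl gene identifiers without names, so members are described by their levels and lengths, and the role of each gene is not given.

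All libraries came from Sprague-Dawley rats, and each pooled the tissue of several animals. The in vivo glands were collected in the day (ZT7) or at night (ZT19) at postnatal day 40 under 14 h of light and 10 h of dark. Control rats were not operated on. The operations were done at postnatal day 5: Sham rats were only sham-operated, SCGX rats lost both superior cervical ganglia, and DCN rats kept the ganglia without their central input. Each of the 8 combinations had 3 libraries. For organ culture, glands of rats aged 2 to 3 months were held for 48 h and then left untreated or given 1 uM NE or 500 uM dibutyryl cyclic AMP (DBcAMP, a form of cyclic AMP that enters cells) for 6 h, with 3 libraries each. Mixed tissue was a single pool of RNA from 15 other tissues, and the marker pineal and mixed-tissue libraries had no replicates.

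Read-pairs counted on genes were between 12985072 and 18504240 in the 24 in vivo libraries, between 12556861 and 18524435 in the 9 culture libraries and between 28836161 and 38574186 in the 3 marker libraries. In 2 in vivo libraries, transcripts of other tissues stood out. Summed over 221 genes with at least 50 CPM in mixed tissue and at least 64 times the pineal level, DCN day replicate 1 had 1910 CPM and Sham night replicate 3 had 1792 CPM. The other 22 in vivo libraries had between 92.4 and 146 CPM, and the mixed-tissue library had 88758 CPM. Some results that rest on these libraries, mostly counts of calls, are therefore also given without them. Counts at the stricter threshold, counts shared between comparisons and most values of single genes are not. Shares of all genes called are given for the main fits only. Counts from other methods, or with a library left out, show how the member counts move. They cannot be read as particular to the members. Because marker symbols could not be matched to the identifiers, the pineal label was not checked against named markers.

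Within the marker libraries the 90 members spanned more than 3 orders of magnitude. The smaller of the day and night ratios to mixed tissue, the quantity used in the choice, had a median of 18.2 and reached 765. It was between 8 and 16 in 42 members, between 16 and 32 in 26 and higher in the others. No member was at 0 in mixed tissue, and 3 members had at most 3 read-pairs there. At the edges of the rule, the lowest ratios inside were 8.00, 8.09 and 8.12 and the highest outside were 7.93, 7.91 and 7.84. The lowest CPM inside were 5.44, 5.69 and 7.35, and those just outside were 4.41, 4.16 and 3.56. In Control, the absolute log2 night/day values nearest the limit were 0.91, 0.91 and 0.89 inside and 1.05, 1.05 and 1.08 outside.

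**Figure D1:**
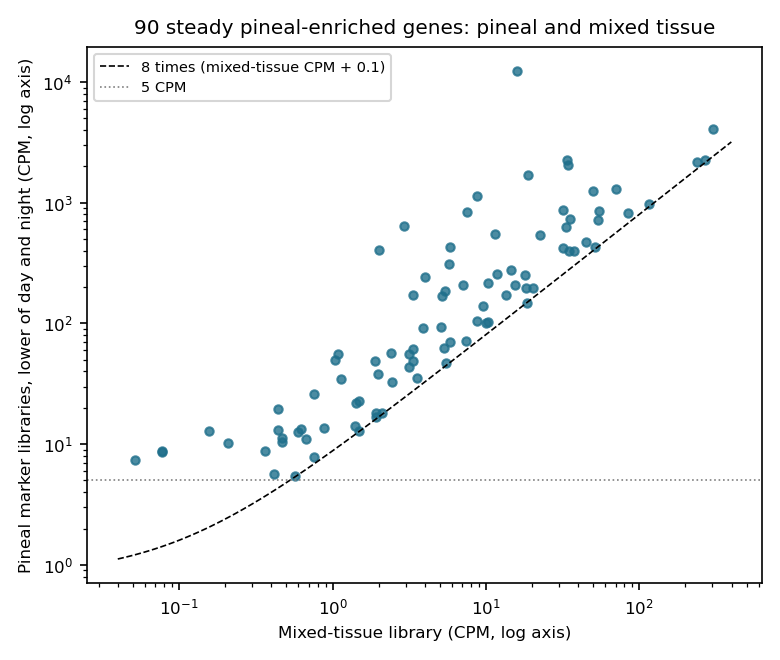
Level of each of the 90 members in the mixed-tissue library (horizontal, CPM, log axis) and the lower of its levels in the day and night pineal marker libraries (vertical, CPM, log axis). All points lie above the 2 lines that chose them, 5 CPM (dotted) and 8 times mixed tissue (dashed), and the most abundant member stands alone at 12241 CPM in pineal against 15.9 CPM in mixed tissue.

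The rule selected on pineal level, so the levels that follow are a description. The median member had 149 CPM in Control day, with a range from 3.43 to 20747 CPM. Per length, members had a median of 88.1 RPKM (the count scaled to gene length and library total) in Control day, compared with 18.6 RPKM over the 10785 genes with at least 5 CPM there. Gene models of members had a median length of 1887 bases, against 2163 bases over those genes. Together the 90 members took a median of 5.21% of all read-pairs on genes in vivo, from 3.92% to 5.94% over the 24 libraries, and 0.199% in mixed tissue.

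A single gene supplied much of that share. The most abundant member, with a gene model of 1726 bases, had between 13312 and 22374 CPM in the 6 Control libraries, with a median of 16812 CPM. In Sham it had between 11099 and 19003 CPM, in DCN between 13346 and 21317 CPM and in SCGX between 16844 and 23004 CPM (6 libraries each). These ranges pool day and night. By time, Control day (20083 to 22374 CPM) and Control night (13312 to 13540 CPM), which were used in the choice, did not overlap. Sham day (14979 to 19003 CPM) and Sham night (11099 to 13210 CPM) did not overlap, but the test did not pass (log2 -0.44 ± 0.17, edgeR, adjusted p = 0.121). SCGX day (20545 to 23004 CPM) and SCGX night (16844 to 19243 CPM) did not overlap either, and that test did not pass (log2 -0.32 ± 0.09, edgeR, adjusted p = 0.111). DCN day and DCN night overlapped. SCGX was higher than Sham over both times (log2 0.38 ± 0.09, edgeR, adjusted p = 0.0105) and at night (0.46 ± 0.12, adjusted p = 0.0386). The difference at day did not pass the test (0.36 ± 0.13, adjusted p = 0.114), nor did DCN against Sham over both times (0.15 ± 0.15, adjusted p = 0.537). In the 9 culture libraries it had between 3176 and 5852 CPM, below every in vivo library. Without this gene, the members' share of read-pairs was 2.74% to 3.64% in vivo and 3.20% to 3.59% in culture.

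Control night and day levels, which chose the members, differed by at least 1.5-fold in 24 members, with 40 members higher at night and 50 lower. Sham libraries were not used in the choice and gave an independent set of glands. In Sham, night was higher than day in 9 members (10%) and lower in 17 (18.9%) at an adjusted p under 0.05 in edgeR's quasi-likelihood test, which is the threshold for every call below. Of 16050 genes tested, 9.35% were higher and 11.2% were lower. All 9 higher members were also higher at night in Control, and all 17 lower members were also lower there. Over all members, called or not, 22 of the 40 that were higher at night in Control and 41 of the 50 that were lower had the same direction in Sham. Differences reached 2-fold in 11 of 90 members, 2 of them upward and 9 downward at night, and the log2 difference ranged from -1.37 to 1.05. None passed an adjusted p under 0.001 with a fold over 2, where 251 of the 16050 genes were higher and 82 lower. Few genes passed at that threshold, so 0 of 90 does not set the members apart.

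The downward balance in Sham was not kept when 1 library was left out. Members had a median log2 night/day difference of -0.19 in Sham, against -0.04 over all genes tested. In Sham night replicate 3, which carried the other-tissue transcripts, the median member lay 0.36 below its in vivo median on the log2 scale (value -0.36), compared with -0.14 and -0.20 in the other Sham night libraries. Without that library, 15 members were higher and 13 lower at night, and the median difference was -0.04. The shares of all genes in that fit are not given. Leaving out Sham day replicate 2 instead lowered the calls to 3 higher and 10 lower.

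**Figure D2:**
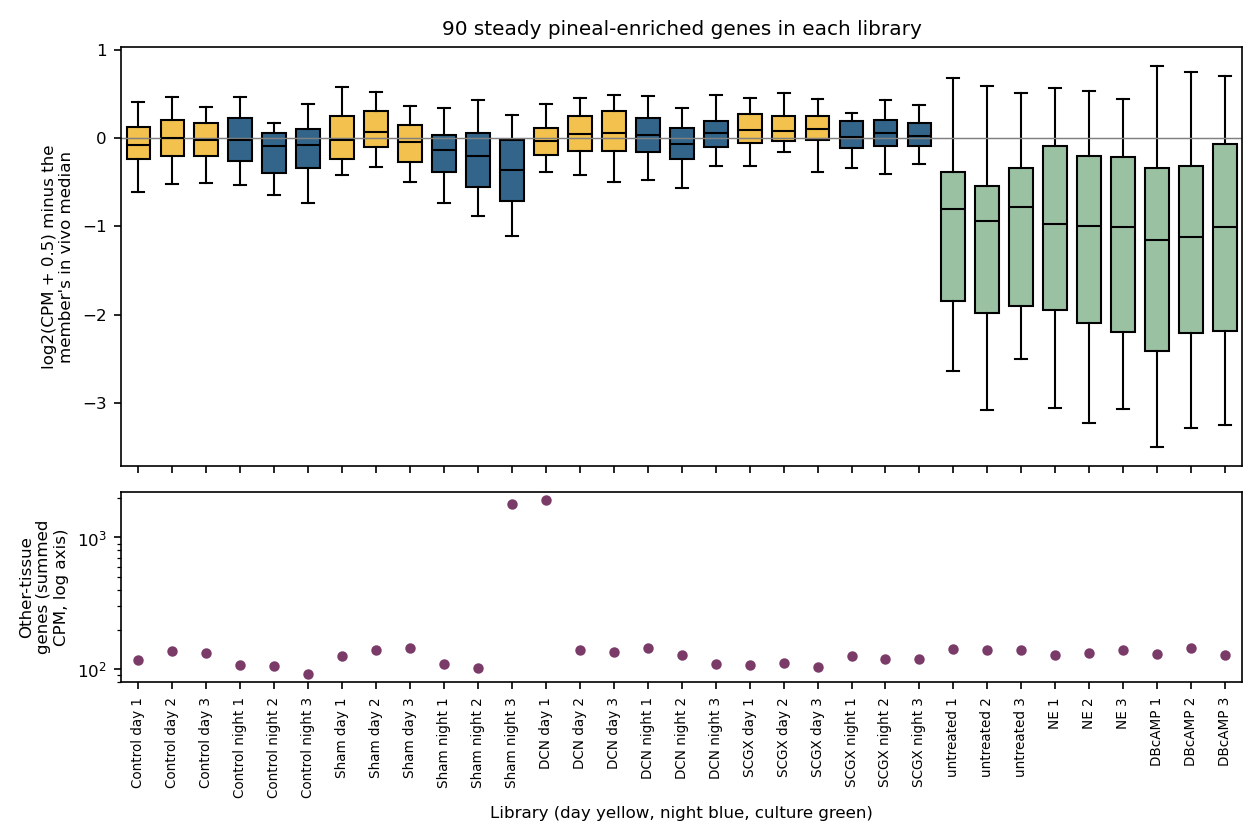
Upper panel, log2(CPM + 0.5) of the 90 members minus each member's median over the 24 in vivo libraries, with boxes for the quartiles, whiskers for the 10th and 90th percentiles and a line for the median of each library. Lower panel, summed CPM of the 221 other-tissue genes (log axis). In vivo medians stayed between -0.36 and 0.10, the lowest in Sham night replicate 3, and culture medians were between -1.16 and -0.78, while the other-tissue sum stood apart in Sham night replicate 3 and DCN day replicate 1.

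In the operated groups the night/day calls among members were as follows. In DCN no member and 0% of 15928 genes passed the test with edgeR; 6 members had an unadjusted p under 0.05, and DESeq2 called 0 members. Member differences in DCN had a median log2 value of 0.03, and 88 of 90 were under 1.5-fold. In SCGX, 1 member was higher and 9 were lower at night, where 1.02% of 15551 genes were higher and 0.83% lower. The spread between SCGX replicates was small, and 81 of 90 members were under 1.5-fold. DESeq2 and a fit with no count filter each called 21 members in SCGX, with no share of all genes given. With all 24 in vivo libraries in 1 model, 0 members were called in SCGX, and leaving out SCGX day replicate 1 or 3 left 6 or 4.

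The night/day difference itself was compared between operated and Sham rats, which share the Sham libraries. Relative to Sham, the night effect minus the day effect differed in 11 members for DCN, 9 upward and 2 downward, where 11.2% of 16047 genes differed. For SCGX it differed in 26 members, 14 upward and 12 downward, where 18.5% of 15894 genes differed; with library size alone as the scaling these were 21 upward and 8 downward. The member share was 12.2% in DCN and 28.9% in SCGX. Without Sham night replicate 3 the counts were 10 and 35, and without DCN day replicate 1 the DCN count was 7.

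Levels averaged over day and night were compared next, to ask which members differed from Sham after each operation. In bulk glands, fewer cells of a type and less RNA per cell cannot be told apart. Relative to Sham, SCGX was higher in 24 members (26.7%) and lower in 7 (7.78%), where 9.51% of 15894 genes were higher and 9.08% lower. DCN was higher in 14 members (15.6%) and lower in 12 (13.3%), where 7.91% of 16047 genes were higher and 9.9% lower. With library size alone as the scaling the DCN split was 22 higher and 9 lower, and without DCN day replicate 3 there were 17 DCN calls. The median member differed from Sham by 0.18 in SCGX and 0.09 in DCN on the log2 scale, against -0.02 and -0.01 over all genes tested. At day alone the member medians were 0.03 in SCGX and -0.04 in DCN, against -0.01 and 0.02 over all genes tested. At night they were 0.22 and 0.20, against 0.03 and 0.03, so the shift of the median member was seen at night. Without Sham night replicate 3 the member medians over both times were 0.09 in SCGX and 0.03 in DCN. The calls were then 24 higher and 10 lower in SCGX and 14 higher and 14 lower in DCN.

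Most of these differences were small. In SCGX 76 members and in DCN 73 members differed from Sham by less than 1.5-fold. At an adjusted p under 0.001 and a fold over 2, SCGX was higher in 2 members and lower in 4, where 0.321% of genes were higher and 0.774% lower. At that threshold DCN was higher in 1 member and lower in 3, where 0.243% of genes were higher and 0.86% lower. Both operations were called in the same direction in 10 members that were higher, which is 10 of the 14 in DCN and 10 of the 24 in SCGX. Likewise 7 members were lower in both, out of 12 in DCN and 7 in SCGX, and 0 members were called in opposite directions. Over the 15836 genes tested in both, 5.76% were higher in both, 6.47% lower in both and 0.00631% called in opposite directions. Because both operations were compared with the same Sham libraries, this overlap is not independent. In 50 members neither operation was called, and neither was called in 75.7% of those genes.

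By time point, DCN at day was higher in 3 members and lower in 4, where 1.13% of 16076 genes were higher and 1.41% lower, and the split was 4 and 3 with library size alone and 3 and 2 with median-of-ratios size factors. This day count was 0 when DCN day replicate 2 or 3 or Sham day replicate 2 was left out, 2 without Sham day replicate 1, 1 without Sham day replicate 3 and 10 without DCN day replicate 1. DESeq2 called 20 members at day, and 1 model of all 24 in vivo libraries called 14, with no share of all genes given for either. At night DCN was higher in 14 and lower in 8, where 8.98% of 15939 genes were higher and 8.09% lower, and 9 were higher and 9 lower with median-of-ratios size factors. Leaving out DCN night replicate 1 or 2 left 13 or 14 night calls, and 1 model of all 24 libraries gave 39. At day SCGX was higher in 17 and lower in 7, where 6.58% of 15758 genes were higher and 4.83% lower, with 12 calls in all without SCGX day replicate 3. At night it was higher in 20 and lower in 7, where 11.6% of 15886 genes were higher and 9.13% lower, with a split of 12 and 7 under median-of-ratios size factors and 14 to 16 calls when any SCGX night replicate was left out. Without Sham night replicate 3, the night splits were 10 higher and 13 lower in DCN and 16 higher and 13 lower in SCGX.

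The operations were also set against each other without Sham. Only 1 member was called between SCGX and DCN over both times, where 0.234% of 15779 genes differed. This member, with a gene model of 1861 bases, had between 303 and 374 CPM in DCN day and between 345 and 518 CPM in DCN night. In SCGX it had between 569 and 654 CPM at day and between 503 and 544 CPM at night. The night ranges overlapped, and the log2 difference was 0.57 ± 0.09 (standard error, SE; edgeR, adjusted p = 0.0367). Leaving out single libraries gave between 0 and 6 called members.

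**Figure D3:**
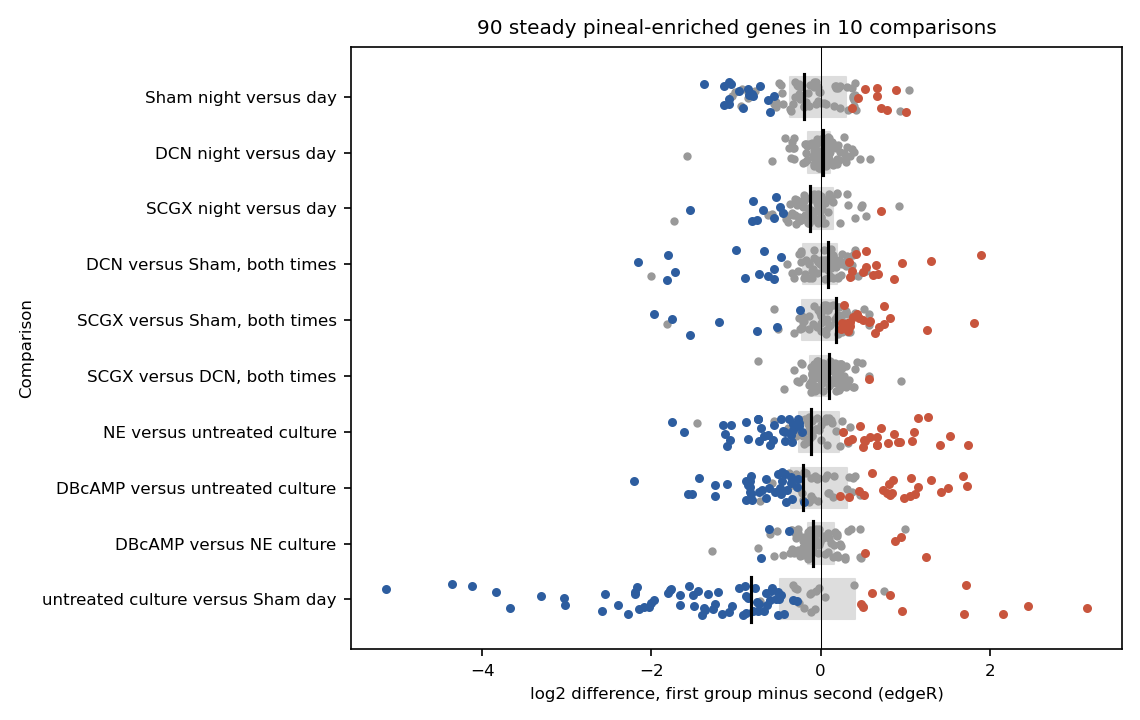
Log2 difference of each member in 10 comparisons, as fitted by edgeR, first group minus second. Red points were called higher and blue points lower at an adjusted p under 0.05, grey points were not called, black lines are member medians and grey bands are the interquartile range of all genes tested. Night/day calls are 26 in Sham and 0 in DCN, and the member median is farthest from 0 in untreated culture against Sham day, at -0.83.

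Identifiers are given for 4 members, 2 with a rise and 2 with a fall after both operations, ranked by the smaller of the 2 changes. They were picked after their values were seen, so their changes illustrate the counts above. The first, ENSRNOG00000022964, rose. Its level had a low of 2.13, a median of 5.01 and a high of 9.05 CPM in the 6 Sham libraries. In DCN the low, median and high were 15.2, 20.1 and 28.8 CPM, and in SCGX they were 13.7, 19.9 and 29.5 CPM. Every operated library was above every Sham library. The pineal marker libraries, which were used in the choice, had 25.4 CPM at day and 8.73 CPM at night. That day value lay within the DCN and SCGX ranges. The log2 difference from Sham was 1.90 ± 0.23 (SE) in DCN and 1.81 ± 0.20 in SCGX, a rise of 3.72-fold and 3.51-fold (edgeR, adjusted p = 0.000298 and 0.000117). In untreated culture this gene was at 0.812, 1.40 and 2.11 CPM, below all 6 Sham libraries, and with DBcAMP it was at 0.225, 0.228 and 0.398 CPM (log2 difference from untreated -2.21 ± 0.50, edgeR, adjusted p = 0.00315). With NE it was at 0.143, 0.230 and 1.05 CPM, which overlapped untreated culture. That test did not pass (log2 -1.46 ± 0.55, edgeR, adjusted p = 0.0556). The treated levels rest on few read-pairs.

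ENSRNOG00000032429 also rose after both operations, with the larger difference at night. In Sham it had 28.8, 31.5 and 36.1 CPM at day but 10.3, 11.03 and 14.2 CPM at night, a 2.59-fold lower night level (log2 -1.37 ± 0.15, edgeR, adjusted p = 0.00158). In DCN it had 31.0, 45.8 and 48.2 CPM at day and 32.02, 44.8 and 45.5 CPM at night. In SCGX it had 42.6, 49.3 and 54.7 CPM at day and 40.5, 43.1 and 62.7 CPM at night. Sham night libraries lay below all operated libraries, while Sham day overlapped DCN day. Relative to Sham at night, the log2 difference was 1.68 ± 0.19 in DCN and 1.94 ± 0.20 in SCGX (adjusted p = 0.00243 and 0.00130). The night effect exceeded the day effect by 1.33 in DCN and by 1.27 in SCGX (adjusted p = 0.00892 and 0.00286). NE lowered the gene in culture from 51.7, 54.8 and 68.0 CPM to 19.2, 23.9 and 31.9 CPM (log2 -1.11 ± 0.15, adjusted p = 2.51e-05), and the groups did not overlap. In Control, which was used in the choice, its log2 night/day value was -0.86, with 20.8 to 24.2 CPM at day and 10.2 to 13.4 CPM at night. The pineal marker libraries, also used in the choice, had 66.3 CPM at day, above every operated library, and 14.2 CPM at night.

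ENSRNOG00000026040 fell after both operations. The 6 Sham libraries had a low of 115, a median of 203 and a high of 268 CPM, and the 6 SCGX libraries had a low of 36.8, a median of 58.6 and a high of 92.8 CPM, with no overlap. In DCN the low was 27.5, the median 35.8 and the high 158 CPM. That high value belonged to DCN day replicate 1, the library with other-tissue transcripts, and it lay within the Sham range. Over both times the log2 difference was -1.76 ± 0.18 in SCGX and -1.80 ± 0.43 in DCN (edgeR, adjusted p = 7.17e-05 and 0.0149), and -2.40 in DCN without that library. With all libraries, DCN passed the test at night (log2 -1.95 ± 0.44, edgeR, adjusted p = 0.0277). At day it did not (log2 -1.60 ± 0.63, adjusted p = 0.200). In culture the gene had 67.3 to 116 CPM untreated, and the log2 differences with NE (0.35, adjusted p = 0.0629) and DBcAMP (0.09, adjusted p = 0.722) did not pass the test.

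ENSRNOG00000023209 was a gene of low level that fell after both operations and rose in treated culture. Sham libraries had 1.92, 3.32 and 4.37 CPM at day and 6.21, 6.31 and 6.39 CPM at night. In DCN the 6 libraries had a low of 1.12 and a high of 2.37 CPM, and in SCGX a low of 0.698 and a high of 1.52 CPM. Every SCGX library was below every Sham library, while DCN overlapped Sham day. Over both times the log2 difference was -1.72 ± 0.24 in DCN and -1.97 ± 0.23 in SCGX (edgeR, adjusted p = 0.000791 and 0.000188). At day alone the DCN difference did not pass (log2 -0.99 ± 0.39, edgeR, adjusted p = 0.203), and at night it did (log2 -2.39 ± 0.26, adjusted p = 0.00243). Untreated cultures had 4.82, 5.07 and 5.14 CPM, NE cultures 10.1, 10.7 and 10.7 CPM, and DBcAMP cultures 13.4, 13.6 and 17.0 CPM. The rise over untreated was 2.23-fold with NE and 3.21-fold with DBcAMP (adjusted p = 1.35e-05 and 1.93e-06).

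**Figure D4:**
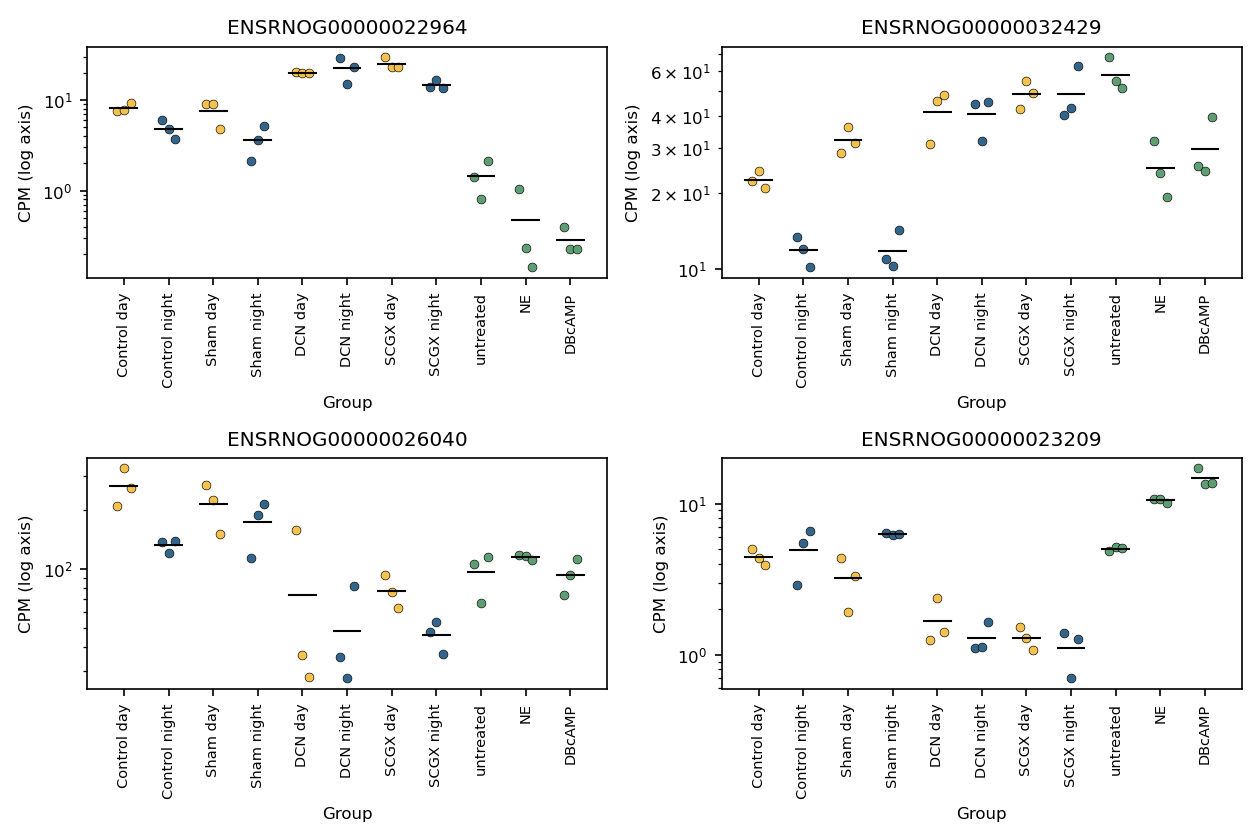
Level of the 4 identifiers in each library (points, CPM, log axes that do not start at 0) by group, with the group mean as a line; day is yellow, night blue and culture green. In the upper 2 panels the operated libraries sit above Sham night, in the lower 2 panels the SCGX libraries sit below all Sham libraries, and DCN day replicate 1 is the high point of its group at 158 CPM for ENSRNOG00000026040.

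A further member that fell in both operations stood out for its abundance, at 2448 CPM in Control day with a gene model of 3429 bases. Sham had between 2488 and 3036 CPM at day and between 2938 and 3456 CPM at night. In DCN the level was between 688 and 1389 CPM at day and between 721 and 1076 CPM at night, and in SCGX it was between 1005 and 1142 CPM at day and between 979 and 1151 CPM at night. No operated library reached the Sham range. The log2 difference over both times was -1.81 ± 0.18 in DCN and -1.54 ± 0.09 in SCGX (edgeR, adjusted p = 8.14e-05 and 9.44e-07). Untreated culture was also lower, at 825, 1047 and 1051 CPM. NE raised the level to between 1654 and 1756 CPM and DBcAMP raised it to between 1460 and 1729 CPM (log2 0.91 ± 0.09 and 0.86 ± 0.10, adjusted p = 1.87e-06 and 1.49e-05).

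More members were called in organ culture than after either operation, but the spread between replicates differed. The coefficient of variation was 8.15% for NE and 9.09% for DBcAMP against untreated culture. It was 15.2% for untreated culture against Sham day, and 24.1% for DCN and 19.5% for SCGX against Sham over both times. The numbers of calls are thus not a measure of the size of the differences. Culture used glands of female rats, whereas pups of both sexes entered the in vivo groups. Culture and Sham day thus differ in sex, age, tissue handling, innervation and sequencing run at once, which cannot be told apart here. Untreated culture was lower than Sham day in 64 of 90 members (71.1%) and higher in 10 (11.1%), where 25.1% of 15747 genes were lower and 25.5% higher. The median member differed by -0.83 on the log2 scale, against -0.02 over all genes tested, and 39 members were at least 2-fold lower. At an adjusted p under 0.001 and a fold over 2, 34 members were lower and 4 higher, where 4.81% of genes were lower and 5.51% higher. Control was used in the choice, so the counts against Control day, 63 members lower and 10 higher, are a description only. The share of all genes in that comparison is not given, and these counts add no support to those against Sham day. In 45 members all 3 untreated cultures lay below all 24 in vivo libraries, Control included, and in 7 members they lay above them. Of the 15747 genes tested, 13.8% lay below and 11.8% above in this way.

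The fall in culture took in the most abundant member, whose untreated cultures had 4488, 5825 and 5852 CPM against 14979, 17373 and 19003 CPM in Sham day (log2 -1.56 ± 0.15, edgeR, adjusted p = 7.12e-05). The largest fall was in a member with a gene model of 385 bases, from 7.54, 13.1 and 16.04 CPM in Sham day to 0.270, 0.271 and 0.420 CPM (log2 -5.13 ± 0.39, adjusted p = 1.80e-05). At the other end, a member with a gene model of 4595 bases had 1410, 1425 and 2007 CPM in Sham day and 12929, 13175 and 13697 CPM in untreated culture, an 8.87-fold rise (log2 3.15 ± 0.17, adjusted p = 3.40e-06). It became the most abundant of the 90 in culture. Across the in vivo groups its level stayed between 1088 and 2012 CPM, and NE and DBcAMP cultures had between 12417 and 13827 CPM.

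**Figure D5:**
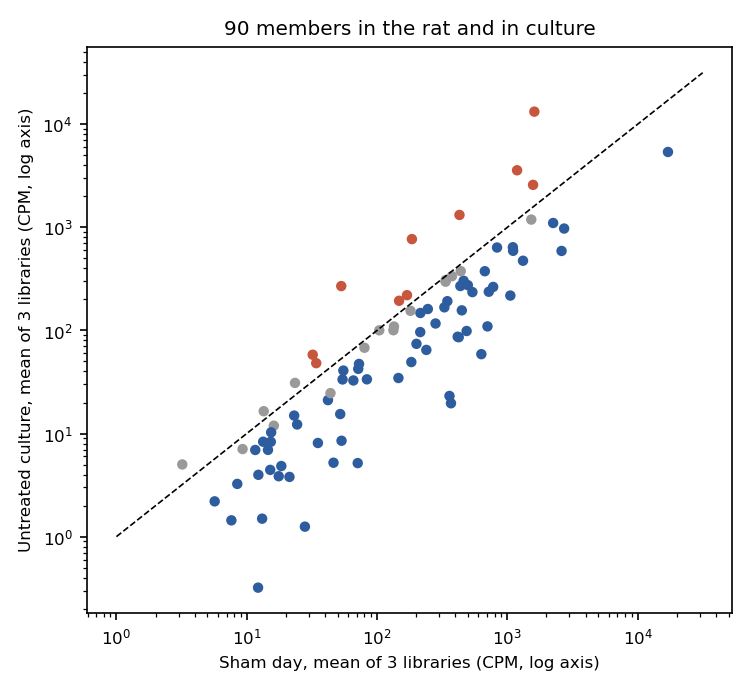
Mean CPM of each member in 3 Sham day libraries (horizontal, log axis) and in 3 untreated cultures (vertical, log axis), with the dashed line at equality. Blue points were called lower in culture (64), red points higher (10) and grey points not called, and the highest red point is the member that rose 8.87-fold.

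NE and DBcAMP each shifted most members in culture. NE raised 23 members (25.6%) and lowered 31 (34.4%), where 14.2% of 15219 genes were higher and 16.1% lower. DBcAMP raised 21 (23.6%) and lowered 36 (40.4%) of the 89 members that passed its count filter, where 19.4% of 15196 genes were higher and 22.5% lower. The member that was not tested with DBcAMP was the 1 with the largest fall in culture. Median log2 differences were -0.12 with NE and -0.21 with DBcAMP, against -0.03 over all genes tested in both. At an adjusted p under 0.001 and a fold over 2, NE raised 6 members and lowered 6, where 2.84% of genes were higher and 0.782% lower. At that threshold DBcAMP raised 8 and lowered 5, where 4.27% were higher and 1.39% lower. In 23 members neither treatment was called, against 53.5% of the 15032 genes tested with both. Both treatments were called upward in 16 members and downward in 28, with 0 in opposite directions, and both used the same untreated cultures. Of those genes, 12.2% were higher with both, 14% were lower with both and 0.0599% were called in opposite directions.

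Among the responding members, the largest fall with NE was in a member with a gene model of 1758 bases, from 46.1, 47.8 and 54.2 CPM to 11.9, 13.3 and 15.7 CPM (log2 -1.75 ± 0.12, edgeR, adjusted p = 1.08e-08). DBcAMP lowered it to 14.02, 15.3 and 16.3 CPM (log2 -1.56 ± 0.10, adjusted p = 1.27e-07). In vivo the same gene was higher in DCN over both times (log2 1.30 ± 0.30, adjusted p = 0.0121). By day it had 345 to 711 CPM in DCN and 138 to 217 CPM in Sham. At night the groups overlapped, at 220 to 579 CPM in DCN and 118 to 260 CPM in Sham, and the test did not pass (adjusted p = 0.141). The difference between SCGX and Sham over both times was not called (log2 0.58 ± 0.22, adjusted p = 0.0877). The largest rise with DBcAMP was in a member with a gene model of 1401 bases, from 10.8, 13.3 and 22.3 CPM to 20.6, 44.0 and 73.7 CPM (log2 1.73 ± 0.36, adjusted p = 0.00173). There the lowest treated library overlapped the untreated range.

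DBcAMP and NE differed directly in few members. DBcAMP was higher in 4 and lower in 3, where 4.46% of 15029 genes were higher and 1.61% lower, and the split was 3 and 6 with library size alone and 4 and 7 without DBcAMP replicate 3. Among the called members, the largest difference was in 1 with a gene model of 2043 bases, at 289, 299 and 325 CPM with NE and 617, 714 and 760 CPM with DBcAMP (log2 1.24 ± 0.08, edgeR, adjusted p = 2.88e-06). Its untreated cultures had 237 to 308 CPM, and its Sham day libraries had 42.8 to 68.4 CPM. The largest called difference the other way was in a member with a gene model of 5354 bases, at 133 to 182 CPM with NE and 83.8 to 94.7 CPM with DBcAMP (log2 -0.70 ± 0.10, adjusted p = 0.000916). Untreated cultures had 213 to 253 CPM of it, so the 3 culture groups did not overlap.

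The night/day calls in Sham and the responses in culture share no library and can be read side by side. Of the 17 members lower at night in Sham, NE lowered 12 and raised 1, and DBcAMP lowered 14 and raised 2. Of the 9 members higher at night in Sham, NE raised 3 and lowered 2, and DBcAMP likewise raised 3 and lowered 2. Among the 24 members higher in SCGX than in Sham, NE lowered 12 and raised 5, and among the 7 lower in SCGX it raised 2 and lowered 0. DBcAMP lowered 13 and raised 2 of those 24, and of those 7 it raised 3 and lowered 1. Among the 14 members higher in DCN, NE lowered 9 and raised 2, and of the 12 lower in DCN it raised 5 and lowered 0. DBcAMP lowered 10 and raised 0 of those 14, and of those 12 it raised 6 and lowered 1. These counts stand beside the 34.4% of all members that NE lowered and the 25.6% that it raised (40.4% and 23.6% for DBcAMP), and no test was made of the difference. The same shares over all genes with these calls are not given here, so the counts cannot be read as particular to the members. The Sham night/day, SCGX and DCN lists all used Sham night replicate 3, the library with other-tissue transcripts.

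Across all 8 in vivo groups, the ratio of the highest to the lowest group median was under 1.5 in 21 members, 1.5 to 2 in 31, 2 to 4 in 31 and 4 or more in 7. Its median was 1.87, compared with 1.49 over the 10785 genes with at least 5 CPM in Control day. Sham night was the lowest group for 41 members, where 1 of its 3 libraries carried the other-tissue transcripts. SCGX day was the highest group for 21. Of the 90 members, 1 was called in none of the Sham night/day, operation or culture comparisons, against 23.5% of the 14631 genes tested in all of them.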

How the data were processed

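RNA was measured in 36 libraries, grouped by their labels. The authors aligned stranded, paired reads of total RNA to the rn4 assembly with STAR 2.3.1y and used QoRTs, with the counting rule of HTSeq, to count read-pairs on each Ensembl gene. The deposited counts are whole read-pairs without normalization. The deposited RPKM values are those counts scaled to gene length and to the library's total on genes, were used for levels per length and for gene lengths, and were not tested. Read-pairs of more than 1 gene were not counted, so near-identical copies may be undercounted.

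From the counts, 14 comparisons and 2 night-by-operation interactions were fitted over all genes with edgeR 4.0.16 in R 4.3.3 (TMM, quasi-likelihood test, Benjamini-Hochberg adjustment, mean normalized count of at least 5). The interactions and their alternatives were added after the data were seen. Comparisons over both times had time as a term. DESeq2 1.42.0, other scalings, no filter, a replicate block, 1 model for all libraries and leaving out each library were alternatives. Scripts were tested on simulated data with known changes. Figures used Python 3.11.15.

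Replicate numbers did not pair samples: correlations of same-numbered samples' deviations ran from -0.47 to 0.37, and 0 comparisons had every pair over 0.1. Members and lists were chosen with earlier results of these data known. The identifiers could not be paired with symbols in the gene table used here, so the lists of roles and markers, the rule for naming genes and the promoter motifs fixed for this work were not applied. So that few unnamed genes are listed, 4 identifiers are given, by a rank set after the data were seen. P-values measure the spread between pools, and a permutation of 3 against 3 libraries cannot go below 0.1, so models over all genes were used. Counts give counting error only.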

Additional observations from a re-analysis of the deposited data

Results flagged for a closer look

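In 2 libraries a signal from other tissues appeared that was not a term in any comparison. Both libraries were kept in the comparisons of their groups. The 221 genes of other tissues summed to 1910 CPM in DCN day replicate 1 and 1792 CPM in Sham night replicate 3, above the highest of the other 22 in vivo libraries, at 146 CPM. Their part in the member results was not tested beyond the values given without them.

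The interaction of operation and time was tested with edgeR (adjusted p under 0.05). By it, the night/day difference itself differed between operated and Sham rats in 11 members for DCN and in 26 for SCGX. These are 12.2% and 28.9% of members, where 11.2% and 18.5% of all genes tested differed, so the DCN share is near that of all genes. Among the 4 identifiers it differed for ENSRNOG00000032429, with a log2 interaction of 1.33 in DCN and 1.27 in SCGX.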

How the results depend on the processing

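Of 207 alternative counts of members, 166 were within 1.5 times the reported one, and the cause of the other shifts was not tested. The share of all genes called is not given for the alternatives, so their counts are not set against all genes. An enrichment of 4 or 16 times mixed tissue chose 257 or 48 members. DESeq2 called 21 members in SCGX night versus day, 20 in DCN versus Sham at day and 3 in SCGX versus DCN. Without a count filter, 21 were called in SCGX night versus day and 18 in DBcAMP versus NE. With all 24 in vivo libraries in 1 model there were 0 in SCGX night versus day, 14 in DCN versus Sham at day and 39 at night. With library size only, 17 were called for the night effect minus the day effect in DCN. With the replicate number as a block (replicate block), though the numbers did not pair samples, 3 were called in DCN versus Sham at day and 0 in SCGX versus DCN, and no other count moved by over 1.5 times. Leaving out 1 library gave 13 to 28 calls in Sham night versus day (lowest without Sham day replicate 2), 4 to 9 in SCGX night versus day (lowest without SCGX day replicate 3, then replicate 1), 0 to 10 in DCN versus Sham at day (under 7 without DCN day replicate 2 or 3 or any Sham day replicate) and 13 to 23 at night (lowest without DCN night replicate 1, then replicate 2), 12 to 27 in SCGX versus Sham at day (lowest without SCGX day replicate 3) and 14 to 30 at night (14 to 16 without any one SCGX night replicate). It gave 17 to 29 in DCN versus Sham over both times (lowest without DCN day replicate 3; 30 without both libraries with other-tissue transcripts), 0 to 6 in SCGX versus DCN, 6 to 11 in DBcAMP versus NE (highest without DBcAMP replicate 3) and 7 to 10 for the DCN night effect minus the day effect (lowest without DCN day replicate 1). Scaling by library size alone put the median log2 difference of all genes at 0.14 in DCN versus Sham at night and -0.17 with DBcAMP, against 0.03 and -0.03 with TMM. For the 4 identifiers, 281 of 292 alternative values in the both-times, treatment and culture comparisons kept their direction and call, 11 newly passed the test and 0 reversed. Depth limits the lowest members, with 3.43 CPM at the bottom of Control day. The cell type and sequence analyses were not run.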

Other observations

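The spread within groups was uneven among the members. Within each of the 8 in vivo groups, 61 members varied less than 2-fold between the 3 libraries, and 3 members varied more than 4-fold in at least 1 group. The widest was a member with a gene model of 708 bases, which had 0.780, 10.9 and 31.6 CPM in Sham night, 0.132, 0.723 and 8.72 CPM in DCN night and 0.669, 0.693 and 8.38 CPM in SCGX night. Its Control libraries had between 13.5 and 17.3 CPM at day and between 15.7 and 16.7 CPM at night. The night groups of operated and Sham rats thus scattered while Control did not, and group medians of this member hide that scatter.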
